A study of Mus musculus with 6 samples.

Results

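The nuclear lamina genes described here are 8 genes chosen by symbol: the lamins Lmna, Lmnb1 and Lmnb2, the lamin B receptor Lbr, the LEM domain genes Tmpo and Emd, and the SUN domain genes Sun1 and Sun2. All 8 were found among the 17006 genes of each table. They were read in primary neural stem cells cultured from the subventricular zone of C57BL/6 mice, 3 libraries from young animals (2 months) and 3 from aged animals (15 to 18 months). Both groups were kept in the initial proliferation medium, the labels name no allele or agent in either, and tissue of 5 mice was pooled before dissociation. Whether each library came from a pool of its own is not stated, so p-values measure the spread between these libraries, which may be technical.

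The lamina is a mesh of intermediate filament proteins that lines the inner face of the nuclear envelope, gives the nucleus its stiffness and holds heterochromatin at the nuclear edge. A-type lamins A and C are spliced from the single gene Lmna and scale with the stiffness of a tissue, whereas the B-type lamins have a gene each and stay anchored in the membrane by a farnesyl group. B-type lamins are needed for the migration of newborn neurons in the developing brain, and a falling level of lamin B1 is widely used as a mark of senescent cells. In the brain, lamin C outweighs lamin A because the neural microRNA miR-9 represses the prelamin A transcript through its 3' untranslated region (UTR).

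Since a gene-level value adds the transcripts of lamins A and C, a match to miR-9 in the prelamin A 3' UTR is shown here. Whether miR-9 acts through this match was not tested. The mature microRNA (RefSeq, GRCm38.p6) is printed with its seed, bases 2 to 8, in capitals, and a 22-base window of the prelamin A 3' UTR with the 7 bases complementary to that seed in capitals.
mmu-miR-9-5p: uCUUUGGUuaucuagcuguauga
Prelamin A site: gtatctgccttaaaACCAAAGg
The window lies at chr3:88481785-88481806 on the minus strand (GRCm38, GENCODE M21), in the 3' UTR of transcript Lmna-201, and the match starts at base 282 of the 926 bases of that UTR. The seed match ACCAAAG was searched on the transcript strand in the 3' UTRs of the 20 annotated transcripts of the members that the tables list, and only this transcript held it. The other Lmna transcripts searched, which include that of lamin C, lacked it, and their annotated 3' UTRs are 91 and 92 bases long. Among 1326 mouse 3' UTRs within 10% of the 926 bases of Lmna-201, 7.47% held the match, so a match in a UTR of that size is not rare.

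Lmnb1, which encodes lamin B1, was the most abundant member in each of the 6 libraries. Its values were 173.74, 175.6 and 177.45 FPKM in the young libraries, against 184.3, 180.45 and 176.19 FPKM in the aged ones (FPKM: fragments per kilobase of transcript, scaled to library size). The groups overlapped, because the third aged library lay below the third young one. The log2 change on the FPKM + 1 scale was 0.04 ± 0.03 (SE), with a 95% interval of -0.03 to 0.11 and a limma adjusted p of 0.702. In percent the interval ran from -2.14 to 7.69, and over the 16 alternatives its lower end lay between -1.44 (without the third aged library) and -4.78 (without limma's trend). It was -3.96 without the first aged library, -3.75 and -3.35 without the first and the second young one, -3.35 after rescaling to TPM and -3.21 with the replicate block. Lmnb1 (gene 16906) lies on chromosome 18, 56707813 to 56753424 on the plus strand, with 11 exons, and its level exceeded that of 96.7% of the tested genes.

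Lmnb2, the gene of the second B-type lamin, was at 24.17, 24.34 and 25 FPKM in the young libraries, against 25.34, 26.36 and 26.88 FPKM in the aged ones. All aged values were above all young ones, though by 0.34 FPKM at the nearest pair, and the groups overlapped once libraries were rescaled to equal sums (TPM). The log2 change was 0.09 ± 0.05 (SE), with a 95% interval of -0.02 to 0.20 and a limma adjusted p of 0.506. Lmnb2 (gene 16907) is on chromosome 10, 80901203 to 80918245, minus strand.

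With all 6 libraries Lmna had the largest log2 change of the 8 members, and it was downward. Emd took that place without the first aged library (0.17 against -0.13 for Lmna) and without the second young one (0.14 against -0.11). Lmna was at 15.89, 16.68 and 14.2 FPKM in the young libraries, against 13.18, 14.51 and 13.78 FPKM in the aged ones. Its means were 15.6 ± 1.27 against 13.8 ± 0.666 FPKM (SD, n = 3 each). The third young library lay inside the aged range, so the groups overlapped. The log2 change was -0.16 ± 0.07 (SE), with a 95% interval of -0.33 to 0.01 and a limma adjusted p of 0.439 (unadjusted p = 0.0563). Of all tested genes, 81.8% had a smaller absolute change. Lmna (gene 16905) lies on chromosome 3, 88480147 to 88509956, minus strand, and the tables give 1 value for its 3 transcripts.

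**Figure D1:**
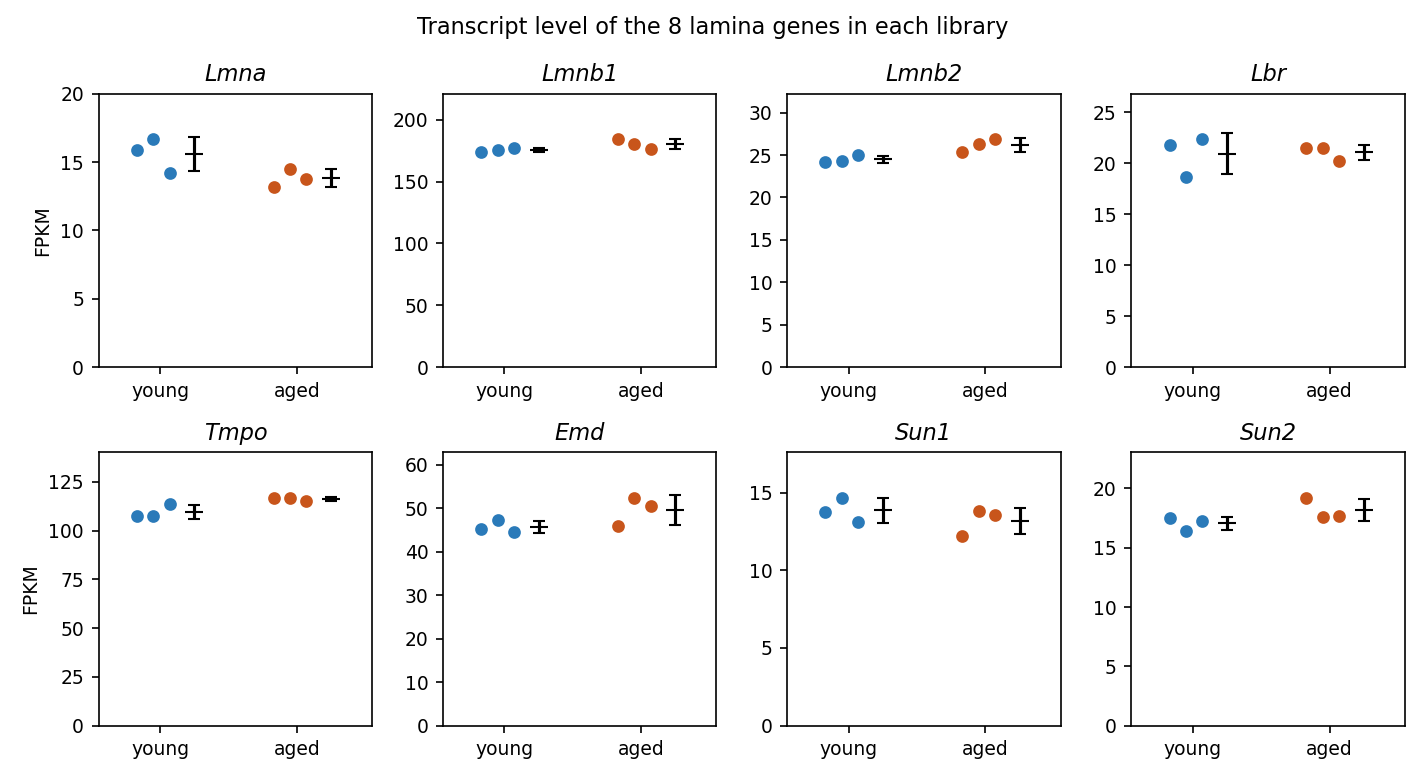
FPKM of each member in the 3 young (blue) and 3 aged (orange) libraries, each panel on its own axis from 0; black bars give the mean and SD of a group. Lmnb1 sits at 173.74 to 184.3 FPKM in all 6 libraries, while the young Lmna values reach from 14.2 to 16.68 FPKM and the aged ones from 13.18 to 14.51 FPKM.

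Lamin transcripts were thus mostly of the B1 type at both ages. Per library, Lmnb1 made up 81.1% to 82.7% of the summed FPKM of the 3 lamin genes, Lmnb2 11.2% to 12.4% and Lmna 5.92% to 7.70%. The level of Lmnb1 was 10.53 to 13.98 times that of Lmna. The ratio of Lmna to Lmnb1, which is free of library scaling, was 0.09146, 0.09499 and 0.08002 in young and 0.07151, 0.08041 and 0.07821 in aged libraries. These ranges overlapped, because the third young library lay below the second aged one. The log2 difference of -0.21 ± 0.09 (SE) had an exact two-sided permutation p of 0.2, where 0.1 is the smallest that 3 against 3 libraries can give. Summed over the 3 lamin genes, the level was 213.8, 216.62 and 216.65 FPKM in the young libraries, against 222.82, 221.32 and 216.85 FPKM in the aged ones. The log2 difference of this sum was 0.03 ± 0.01 (SE) with an exact permutation p of 0.1, and p was 0.5 after rescaling to TPM.

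Mature miR-9 was not analysed here, and the host transcripts of its precursors were looked up only after the values had been seen. Mir9-3hg, the host of Mir9-3 (listed in the tables as AI854517), was at 23.57, 23.79 and 22.3 FPKM in the young libraries, against 28.16, 27.47 and 25.73 FPKM in the aged ones. Its aged values were all higher, as were those of 8.98% of all tested genes (log2 change 0.21 ± 0.05, SE; limma adjusted p = 0.151). C130071C03Rik, which overlaps Mir9-2, was near the detection limit, with about 0.956, 2.94 and 1.99 estimated reads in young and 9.84, 6.95 and 8.9 in aged libraries (0.13 to 0.4 against 0.97 to 1.37 FPKM). It was under the filter on low values, so no test is given. The part of miR-9 in the Lmna values was not tested.

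Of the membrane partners of the lamins, Lbr ties B-type lamins to heterochromatin and is also a sterol reductase. It was at 21.78, 18.65 and 22.36 FPKM in the young libraries, against 21.47, 21.47 and 20.21 FPKM in the aged ones. The second young library was the lowest of the 6 and the third young one the highest, so the aged values lay inside the young range. The log2 change was 0.01 ± 0.07 (SE), with a 95% interval of -0.15 to 0.18 and a limma adjusted p of 0.976, and its sign turned to -0.002 after rescaling to TPM and to -0.07 without the second young library. Lbr (gene 98386) lies on chromosome 1, 181815335 to 181843046, minus strand, and shares 440 exonic bases with Dnah14 on the opposite strand.

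Tmpo encodes the LAP2 proteins, of which the membrane forms bind B-type lamins and the soluble alpha form binds A-type lamins. Its values were 107.43, 107.32 and 113.6 FPKM in the young libraries, against 116.94, 116.72 and 115.16 FPKM in the aged ones. The aged libraries were all above the young ones, with the third young library close to them. The log2 change was 0.09 ± 0.03 (SE), with a 95% interval of 0.01 to 0.17 and a limma adjusted p of 0.379. Tmpo was the single member with an unadjusted p under 0.05 (0.0361), which 11.9% of all tested genes had, and rescaling to TPM gave an unadjusted p of 0.0840. The single value covers 6 transcripts on chromosome 10, 91147571 to 91181315, minus strand (gene 21917), so the membrane and soluble forms cannot be told apart.

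Emd encodes emerin, a LEM domain protein lost in X-linked Emery-Dreifuss muscular dystrophy. It was at 45.14, 47.19 and 44.48 FPKM in the young libraries, against 45.82, 52.42 and 50.59 FPKM in the aged ones. The first aged library lay among the young ones and the other aged libraries above them. The log2 change was 0.12 ± 0.06 (SE), with a 95% interval of -0.01 to 0.24 and a limma adjusted p of 0.465. Leaving out 1 library at a time gave 0.08 (without the second aged one) to 0.17 (without the first aged one). Emd (gene 13726) is on chromosome X, 74254687 to 74261548, plus strand.

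Sun1 and Sun2 encode the inner membrane part of the LINC complex, which couples the lamina to the cytoskeleton through nesprins. Sun1 was at 13.77, 14.68 and 13.12 FPKM in the young libraries, against 12.24, 13.82 and 13.53 FPKM in the aged ones (log2 change -0.07 ± 0.07, SE; limma adjusted p = 0.784). Sun2 was at 17.48, 16.44 and 17.29 FPKM in the young libraries, against 19.23, 17.61 and 17.66 FPKM in the aged ones (log2 change 0.08 ± 0.06, SE; limma adjusted p = 0.651). The Sun1 groups overlapped, while those of Sun2 were separated by 0.13 FPKM as deposited and overlapped after rescaling to TPM. The 95% intervals were -0.23 to 0.09 for Sun1 and -0.05 to 0.22 for Sun2. Single libraries moved both: the Sun1 change was -0.02 without the first aged library, -0.03 without the second young one and -0.10 without the third young one, and the Sun2 change was 0.04 without the first aged library. The ratio of Sun1 to Sun2 was 0.788, 0.893 and 0.759 in young and 0.637, 0.785 and 0.766 in aged libraries. Its log2 difference of -0.16 ± 0.12 (SE) had an exact permutation p of 0.4, and without the first aged library, the lowest of the 6, it was -0.07 (exact permutation p = 0.8). Sun1 (gene 77053) lies on chromosome 5, 139200637 to 139249840, plus strand, and Sun2 (gene 223697) on chromosome 15, 79724070 to 79742536, minus strand.

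Taking the 8 members as a set, 0 passed limma at an adjusted p under 0.05, against 0.722% of the 11912 tested genes, and 1 had an unadjusted p under 0.05. With a background under 1%, a count of 0 among 8 genes is near what the whole table gives. The median log2 change of the members was 0.06, beside 0.003 for all tested genes, and the median absolute change was 0.09, beside 0.07. Point estimates were higher in aged libraries for 6 members and lower for Lmna and Sun1, and the 95% interval held 0 for all members but Tmpo. Groups did not overlap for 3 members, all higher in aged libraries (Lmnb2, Tmpo and Sun2), a pattern that 8.98% of tested genes showed in that direction and 17.6% in either. After rescaling to TPM this count was 0, against 7.51% of tested genes, while with median-of-ratios size factors the same 3 members stayed apart, against 8.67%.

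**Figure D2:**
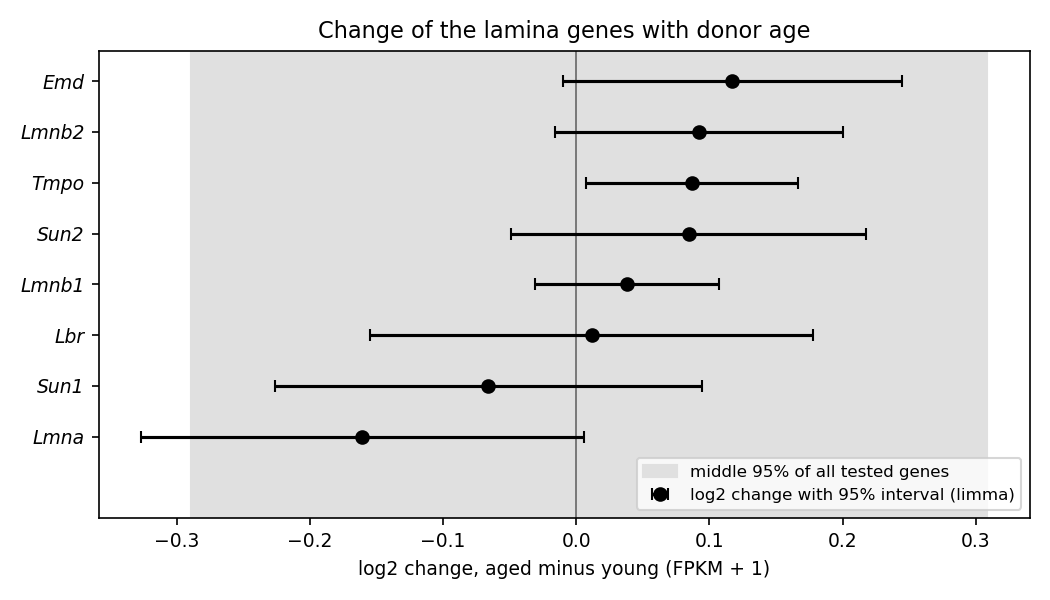
Log2 change of each member between aged and young libraries on the FPKM + 1 scale, with the 95% interval from limma; the grey band holds the middle 95% of all tested genes (-0.29 to 0.31). All 8 point estimates lie inside the band, from -0.16 for Lmna to 0.12 for Emd.

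The order of the levels, which FPKM allows because it is per length, was the same at both ages down to Lbr. By their means over the 6 libraries it ran Lmnb1 (178.0 FPKM), Tmpo (112.9), Emd (47.6), Lmnb2 (25.3), Lbr (21.0), Sun2 (17.6), Lmna (14.7) and Sun1 (13.5). The ranges of neighbours did not overlap from Lmnb1 to Lbr, while those of Lbr and Sun2, of Sun2 and Lmna, and of Lmna and Sun1 did. Within a library, Lmna exceeded Sun1 in 6 of 6 cases and Sun2 exceeded Lmna in 5 of 6.

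How finely these levels could be compared differed among members. Lmnb1 drew about 2650 to 2750 estimated reads per library, for which counting alone gives a coefficient of variation of 1.93%, and its libraries varied by 1.06% (young) and 2.25% (aged). Lmna drew about 106 to 283 reads, depending on which transcript length is used, for a counting variation of 6.38% to 9.15%, and its libraries varied by 8.13% and 4.82%. For Lbr, the young libraries varied by 9.54% against 5.06% from counting, the widest spread among the members. Counting alone gives 4.69% for Lmnb2 and 4.98% for Emd, close to the value for Lbr.

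**Figure D3:**
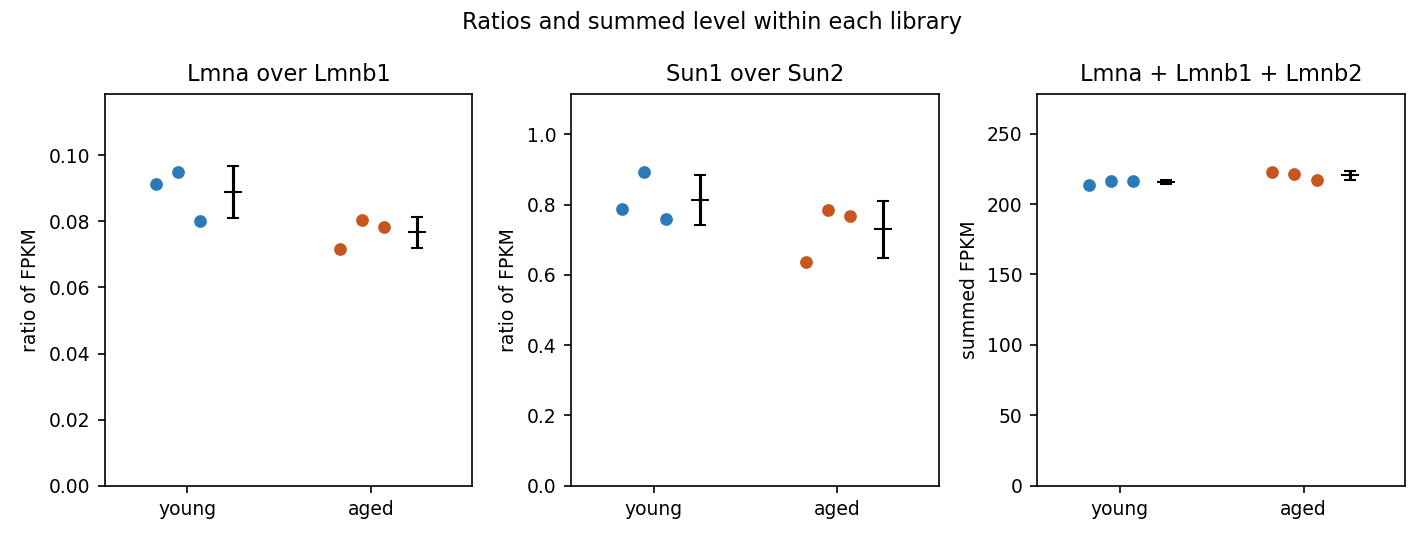
Ratio of Lmna to Lmnb1, ratio of Sun1 to Sun2, and the summed FPKM of the 3 lamin genes in each young (blue) and aged (orange) library, with axes from 0 and the mean and SD of each group in black. The aged ratios of Lmna to Lmnb1 reach from 0.07151 to 0.08041 and overlap the young ones, whose lowest value is 0.08002. The sums span 213.8 to 222.82 FPKM.

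The genes that work with the lamina were read from lists by role. Of all tested genes 0.722% passed limma, and 6.3% were higher and 5.55% lower in aged libraries at an unadjusted p under 0.05, so the counts below are read against these shares. Of the genes given in brackets for an unadjusted p, Nup210, Plk1, Vps4a, Vcl, Cdkn2b and Ccl2 were named after their values were seen. Among 12 other inner nuclear membrane, LEM domain and torsin genes, 0 passed limma and the median log2 change was -0.046, with 1 member higher (Lemd2) at an unadjusted p under 0.05. Banf1, the chromatin protein that LEM domains bind, had the highest level, with means of 298.2 FPKM in the young libraries, against 312.7 FPKM in the aged ones. Lemd2 was at 31.99, 30.54 and 31.11 FPKM in the young libraries, against 34.6, 34.14 and 34.48 FPKM in the aged ones (limma adjusted p = 0.245). Its groups did not overlap, a pattern that 8.98% of all tested genes showed in that direction. Lemd3, known as MAN1, had means of 7.12 and 6.51 FPKM, Tor1aip1, which encodes the lamin-binding LAP1, 17.6 and 16.1 FPKM, and Tor1aip2 42.1 and 42.7 FPKM.

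Nesprins, the outer membrane partners of SUN proteins, were low. Syne2 had means of 4.85 FPKM in the young libraries, against 5.03 FPKM in the aged ones, Syne1 4.61 and 3.67 FPKM, and the SUN gene Spag4 3.02 and 2.87 FPKM. Of the 7 genes of this list that were matched, these 3 passed the filter on low values and 0 passed limma (0 also at an unadjusted p under 0.05), with a median log2 change of -0.07. The 5 genes that farnesylate, cleave and methylate prelamins also held 0 limma calls, adjusted or not, with a median of 0.007. Fnta, a farnesyltransferase subunit, had means of 35.5 and 36.5 FPKM, the protease genes Rce1 22.6 and 22.4 FPKM and Zmpste24, which cuts prelamin A, 21.8 and 21.1 FPKM.

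Of 29 nuclear pore genes 0 passed limma, 1 was lower at an unadjusted p under 0.05 (Nup210; 5.55% of all tested genes were), the median log2 change was -0.03, and 19 had lower and 10 higher point estimates in aged libraries. The most abundant were Sec13 (means of 91.3 and 93.8 FPKM in young and aged libraries), Nup85 (45.0 and 44.5 FPKM) and Nup62 (42.7 and 45.1 FPKM). Among 18 genes of envelope breakdown and reassembly in mitosis, 0 passed limma, 2 were higher at an unadjusted p under 0.05 (Plk1 and Vps4a; 6.3% of all tested genes were) and the median was 0.02. The small GTPase gene Ran had means of 314.9 and 312.9 FPKM, and the phosphatase genes Ppp2ca and Ppp1cc 203.5 and 207.1 FPKM and 125.5 and 127.7 FPKM. The 15 heterochromatin genes held 0 limma calls too, and 0 at an unadjusted p under 0.05, with a median of 0.02. Cbx3, which encodes a heterochromatin protein HP1, had means of 232.2 and 236.3 FPKM, the corepressor gene Trim28 147.8 and 145.1 FPKM, and the histone methyltransferase gene Ehmt2 76.2 and 77.1 FPKM.

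**Figure D4:**
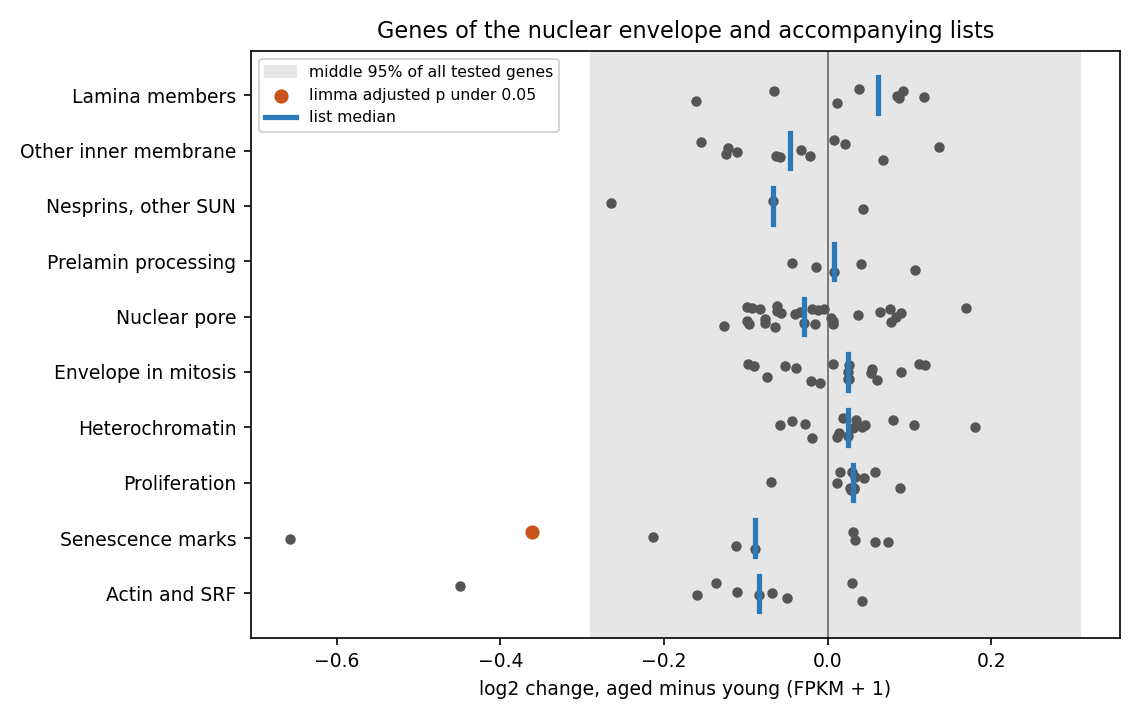
Log2 change between aged and young libraries of each tested gene, by list; blue lines are list medians, orange marks limma adjusted p under 0.05 and the grey band holds the middle 95% of all tested genes. The 1 orange point is Cdkn2a, among senescence marks, and the list medians lie between -0.09 and 0.06.

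Because lamin B1 is read alongside other marks of senescence, these were listed as well, and 1 of 9 tested genes passed limma, against 0.722% of all tested genes. Cdkn2a, the gene of the p16 and p19 proteins, fell, with a log2 change of -0.36 (limma adjusted p = 0.0102), but its adjusted p was 0.0809 in the fit without a trend and 0.0511 in the fit with the replicate block. Cdkn1a, the p21 inhibitor, had means of 248.7 and 233.9 FPKM (limma adjusted p = 0.380). The chromatin protein genes Hmgb1 and Hmgb2, whose loss is also used as a senescence mark, had means of 291.1 and 302.8 FPKM and of 185.7 and 189.7 FPKM, and the secreted Igfbp3 476.6 and 440.7 FPKM. The list median was -0.09, and the genes with an unadjusted p under 0.05 were 5 of the 9, each lower in aged libraries (Cdkn1a, Cdkn2a, Cdkn2b, Ccl2 and Igfbp3), against 5.55% of all tested genes. Ccl2 reached the filter on low values only through the young libraries, so its p is not read as a result. The count and the median that include it are descriptions. This list was chosen with earlier results of these data known, so its other count, 1 of 9, is a description too. Among 12 genes of cycling cells, 0 passed limma, adjusted or not, and the median was 0.03, with means of 62.3 and 63.7 FPKM for Mki67, 335.3 and 342.0 FPKM for Pcna, 133.3 and 136.1 FPKM for Rrm2 and 112.4 and 115.0 FPKM for Top2a. Of 9 tested actin and serum response factor genes, which respond to force on the cell, 0 passed limma, 2 were lower at an unadjusted p under 0.05 (Actg1 and Vcl; 5.55% of all tested genes were) and the median was -0.08. Their most abundant members had means of 1504 and 1419 FPKM (Actg1), 1250 and 1208 FPKM (Actb) and 18.4 and 17.6 FPKM (Srf).

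The genes whose pattern over the 6 libraries was most like that of Lmna were Spata6 (Pearson r = 0.986), Ddx41 (0.980) and Tmtc2 (0.977), and for Lmnb1 they were Adprhl2 (0.986), Uqcc3 (0.985) and Scyl3 (0.985). These are descriptions over 6 libraries, chosen from 11912 genes, with the age groups pooled.

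The labelled cell type matched its markers, since all 12 listed neural stem cell genes passed the filter and summed to 5685 to 5849 FPKM in the young libraries, against 5622 to 5797 FPKM in the aged ones. Markers of other cells were low but not all equal between the ages: the matched fibroblast and pericyte markers summed to 0.45 to 0.64 FPKM in the young libraries, against 2.68 to 3.72 FPKM in the aged ones, with Dcn at 0.1 FPKM or less. Col1a1, a collagen gene, was at 0.54, 0.31 and 0.42 FPKM in the young libraries, against 2.04, 2.53 and 2.81 FPKM in the aged ones. It was the 1 marker of that list above the filter on low values and reached it only through the aged libraries, so no test is given. Oligodendrocyte lineage markers summed to 22.2 to 24.81 and 29.22 to 30.52 FPKM, neuronal markers to 16.02 to 18.17 and 19.86 to 24.48 FPKM, endothelial markers to 2.29 to 3.97 and 3.39 to 3.63 FPKM, ependymal markers to 20.72 to 25.44 and 23.88 to 27.8 FPKM, and microglial markers to 2.88 to 4.19 and 3.06 to 3.5 FPKM. The part of these cells in the lamina values was not tested, and in bulk RNA a change in the share of a cell type cannot be told apart from a change per cell.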

How the data were processed

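Values are FPKM deposited by the authors, 1 table per library, per the file headers. The submitters' processing notes name TopHat, Cuffdiff and mm10. Annotation, strand setting and scaling between libraries are not given in the sources used here. RNA was rRNA-depleted total RNA, per the labels' protocols. Low values fell in steps of 1 read, which put the depth at 5236000 to 5391000 counted reads per library: with a tolerance of 0.15, whole numbers made up 73.2% to 75.2% of values from 0.3 to 3.5 reads, where the step was set, and 44.0% to 47.6% from 3.5 to 10.5 reads (chance gives 30%). Estimated reads cover counting error only.

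The test was limma 3.58.1 (R 4.3.3; lmFit, eBayes with trend, 6 libraries without covariates) on log2(FPKM + 1), two-sided, for 11912 genes whose mean reached 1 FPKM, Benjamini-Hochberg adjusted over all of them. The fit was also run on simulated data with changes larger than that of any member, so how well it finds changes of their size was not tested. Ratios used exact permutation. The members and lists were chosen with earlier results of these data known. Named were the members, 11 fixed genes, each list's called genes and its 3 most abundant ones, and the 3 genes most correlated with Lmna and Lmnb1 (without Rik, Gm, small RNA and pseudogene symbols). Nup210, Plk1, Vps4a, Vcl, Cdkn2b, Ccl2, the miR-9 hosts and Dcn were chosen after their values were seen. Annotation came from GENCODE M21 (GRCm38, the mm10 assembly). In blastn 2.17.0, no transcript of another gene matched the member transcripts listed in the tables over 200 bases at 90% identity, other than the overlapping Dnah14 and Gm26765. Exons of other annotated transcripts overlap Gm14686 (Emd, same strand, 343 bases) and 4930520M14Rik (Sun1, opposite strand, 302 bases), and the listed transcripts share 0 bases with these. Listed transcripts of Sun2 share 136 bases with Gm16575 and those of Tmpo 244 bases with Gm26765, both on the opposite strand. Alternatives covered pseudocount, filter, scaling, variance model, replicate block and each library left out. Figures were drawn with matplotlib 3.10.9 in Python 3.11.15.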

Additional observations from a re-analysis of the deposited data

How the results depend on the processing

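Under the 16 alternatives of the fit (pseudocount, filter, scaling, variance model, replicate block, each library left out), 0 members passed in any (at an unadjusted p under 0.05, Tmpo in 7, Lmna in 3 and Emd in 1). Lmna ranged from -0.22 to -0.11 (adjusted p 0.336 to 0.703), Tmpo from 0.07 to 0.11 (0.345 to 0.622), Emd from 0.08 to 0.17 (0.323 to 0.669), Sun1 from -0.10 to -0.02, Sun2 from 0.04 to 0.11 and Lmnb1 from 0.02 to 0.05. Lbr changed sign after rescaling to TPM (-0.0015) and without young 2 (-0.066), aged 1 (-0.0024) or aged 2 (-0.0024), and reached 0.0591 without young 3; the other 7 members kept their direction in all 16. The lists of accompanying genes, cell type markers aside, held 1 call, Cdkn2a, but 3 after quantile normalization (Actg1 and Igfbp3 in addition) and 0 without limma's trend or with the replicate block. Over all genes, 86 calls became 11 without the trend, 22 with the replicate block and 39 to 70 without 1 library. In the labels, same-numbered libraries share only a number. The correlations of their deviations across genes were 0.008, -0.07 and 0.11, against -0.11 to 0.11 for the other pairs. These values cannot show whether same-numbered libraries were prepared together. The ratio of Lmna to Lmnb1 ranged from -0.28 to -0.16 without 1 library. Depth limits the least-read members, Lmna and Sun1, most.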
